A study of Homo sapiens with 32 samples.

Results

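The 28S and 5.8S rRNAs are RNAs of the large (60S) ribosomal subunit. The base read at each of their positions was followed across 8 NAT10 genotypes of Hep3B cells, a human hepatocellular carcinoma line. The positions were every base of the genes RNA28SN5 (contig GL000220.1, 113348 to 118417, + strand, GRCh38) and RNA5-8SN5 (same contig, 112024 to 112180, + strand), chosen by annotation alone. They comprised 5227 positions, 5070 in 28S rRNA and 157 in 5.8S rRNA. Of these, 5226 had at least 30 reads in all 32 libraries, against 309717 positions of the whole series with that depth in all libraries and 4554670 in any. Positions are numbered from the first base of each gene, and uridines of the RNA are written U where the genome has T.

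The libraries came from ac4C sequencing, in which NaCNBH3 reduces N4-acetylcytidine (ac4C) so that reverse transcription reads part of it as U. Each RNA was split into a NaCNBH3 fraction and an acid-only mock fraction. NAT10 is the enzyme that acetylates cytidines in RNA. In 7 of the 8 genotypes a degron tag derived from FKBP12 had been added to the cells' own NAT10 by CRISPR knock-in, in cells selected with hygromycin and G418, for which no cloning step is stated in the sources used here. FKBP cells carried the tag alone, and NAT10(-) cells also a control plasmid for YFP. K290A and E389L cells received NAT10 with a substitution in the helicase domain, H537A and G641E cells one in the acetyltransferase (GNAT) domain, and NAT10-WT cells the unmutated protein, all after blasticidin selection. Wildtype cells were the untagged parental line. All 8 genotypes received 100 nM dTAGV1, which degrades the tagged protein, for 24 h. FKBP, NAT10(-), K290A, E389L, H537A and G641E are called the 6 genotypes without unmutated NAT10 below, and Wildtype and NAT10-WT the 2 with it. Each genotype had 2 replicates, giving 16 RNA samples and 32 libraries. The study describes its biological replicates in general as run on separate days and from separate transductions. The labels of these libraries give only a replicate number, as a batch, so that number may mark a day.

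Human 28S rRNA carries 5 positions whose base is methylated: N1-methyladenosine (m1A) at A1322, 5-methylcytidine (m5C) at C3782 and C4447, N6-methyladenosine (m6A) at A4220 and N3-methyluridine (m3U) at U4530. In m1A and m3U the methyl group lies on the face of the base that pairs, so reverse transcriptase misreads it, whereas m5C and m6A pair normally. Small nucleolar RNAs guide 2 further and more frequent kinds of modification, methylation of the ribose (Nm, at any base) and pseudouridine (Ψ). NAT10 acetylates cytidines in the middle of CCG triplets of 18S rRNA and tRNAs, and no acetylated cytidine of 28S or 5.8S rRNA is on the list used here. A C read as U (C>U) that appears after NaCNBH3 and is lost without active NAT10 is the pattern an acetylated cytidine would give.

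The following 21-base windows of GRCh38 show the positions that carry the main results, with the position itself in capitals in the middle, T for U, 5′ to 3′. A1322 (GL000220.1:114659-114679) and U4530 (GL000220.1:117867-117887) are the base-methylated positions that were misread most, C4536 (GL000220.1:117873-117893) and A398 (GL000220.1:113735-113755) are ribose-methylated positions that responded to NaCNBH3, and C3003 (GL000220.1:116340-116360) is an unlisted cytosine that responded. C3033 (GL000220.1:116370-116390), G1544 (GL000220.1:114881-114901) and C1704 (GL000220.1:115041-115061) separated the parental line from the tagged lines.
A1322: acccgtcttgAaacacggacc
U4530: gtgagctgggTttagaccgtc
C4536: tgggtttagaCcgtcgtgaga
A398: aactttgaagAgagagttcaa
C3003: cgcggccctcCcccgccccac
C3033: gccgctcgctCcctccccgcc
G1544: actatgcctgGgcagggcgaa
C1704: ctcgcagaccCgacgcacccc

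The deepest position held 20029 to 20049 reads in every library, so depth in these files had an upper limit and its evenness near that limit says little about the amount of rRNA. The median depth per library was 18350 to 19070 reads over 28S rRNA and 19190 to 19630 reads over 5.8S rRNA. The lowest depth of an analysed 28S position was 31 reads, and at 65 positions a library fell under 1000 reads, where shares are less precise. G3373 lacked 30 reads in at least 1 library and was not analysed. As a check of the labels, the C>U gain after NaCNBH3 at 18S C1337, an acetylated position, was 5.69 to 11.6 percentage points in the 12 RNA samples without unmutated NAT10, against 59.6 to 89.6 points in the 4 with it, and these ranges did not overlap. Reads of different rRNA gene copies and of different cells cannot be told apart in a share.

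Almost all positions of both RNAs were read as the genomic base. In the 16 mock libraries the mean mismatch share, which is the share of reads with any other base, had a median of 0.0383% over 28S positions, with 5% and 95% points of 0.0165% and 0.183%. Over 5.8S positions the median was 0.0318%, and the highest value was 0.17%, at C76. In 28S rRNA, 474 positions exceeded 0.1%, 67 exceeded 1%, 12 exceeded 5%, 7 exceeded 10% and 2 exceeded 50%. No 5.8S position exceeded 1%.

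The 67 positions over 1% were unevenly spread over the kinds of modification. They included m1A at A1322, m3U at U4530 and 13 of the 62 ribose-methylated positions, and no pseudouridine. Cytosines made up 29 of them, and C>U was the most frequent leading mismatch (20 positions), followed by G>U (10) and G>A (9). The other 52 had no listed modification. Of the 67, 9 had under 1000 reads in some library, and 2 (G4910 and G3041) have the mismatched base in another reference copy of the gene.

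**Figure D1:**
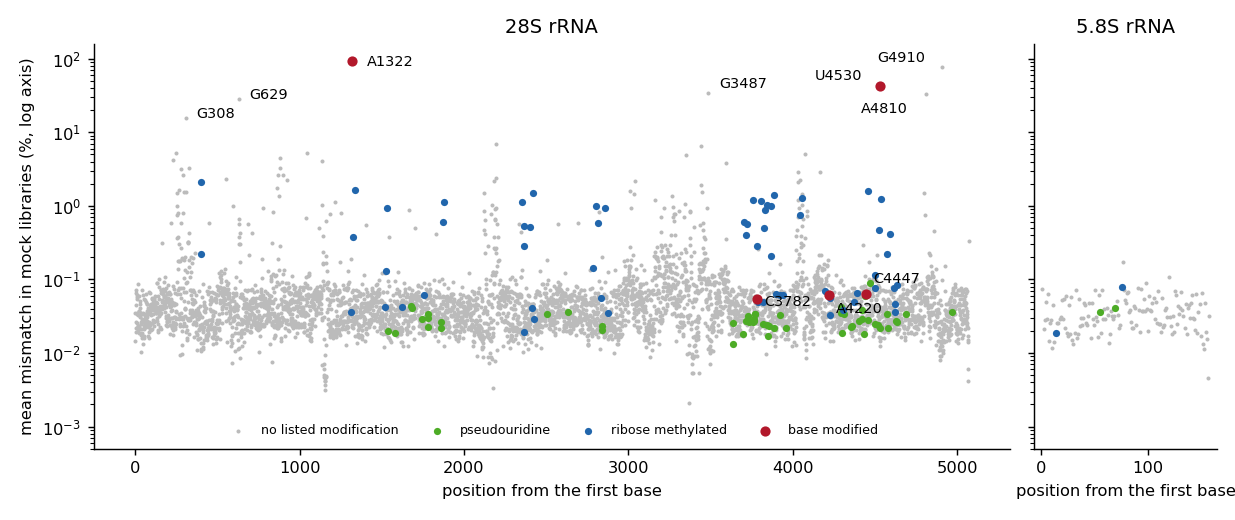
Mean mismatch share in the 16 mock libraries (percent, log axis) at each position of 28S rRNA (left) and 5.8S rRNA (right), counted from the first base, with positions coloured by listed modification. A1322 at 92.6% and U4530 at 42.8% stand far above the 28S median of 0.0383%, ribose-methylated positions lie mostly above it, and no 5.8S position exceeds 0.17%.

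The highest mismatch share of the 2 RNAs was at A1322, and most of the other high positions carry no listed modification. A1322 was misread in 92.6 ± 0.80% of mock reads (SD, n = 16 libraries, as for the shares that follow). G4910 followed with mismatches in 76.0 ± 2.86% of reads, most often A, which is the base of another reference copy of the gene. U4530 came next with 42.8 ± 0.78%. G3487 had mismatches in 34.01 ± 10.7% (A, lowest depth 1616 reads) and A4810 in 32.6 ± 3.61% (G). G629 had them in 28.5 ± 6.68% (U, lowest depth 517 reads) and G308 in 15.7 ± 3.41% (A). Whether mismatches at positions without a listed modification came from misreading or from the sequence of gene copies was not tested. The high share was confined to a single base at the 4 of these positions that were examined for it: within 5 bases on either side, no neighbour exceeded 0.378% at A1322, 0.0793% at U4530, 0.0994% at G4910 or 0.761% at A4810.

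Of the 12 positions with the highest shares, the remaining 5 lay between 5% and 7%. C2196 had 6.94 ± 2.74%, in a run of cytosines where the lowest depth was 115 reads. A3442 was read mostly as C (6.54 ± 2.81%, lowest depth 941 reads) and A4073 likewise (5.02 ± 2.90%). C1047 was read mostly as U, at 5.24 ± 0.75%, and C251 mostly as A, at 5.15 ± 0.60%. G3487, A3442 and A4073 varied between libraries by more than the base-methylated positions did, with ranges over the mock libraries of 13.03% to 50.1% at G3487, 2.96% to 12.3% at A3442 and 1.98% to 9.76% at A4073. Part of this spread went with the replicate number: A4073 had 1.98% to 3.85% in replicate 1 and 3.13% to 9.76% in replicate 2 of the mock libraries.

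At the methylated adenosine A1322, NaCNBH3 shifted which base was read, while the total mismatch share missed the threshold. The mismatch share had a lowest, median and highest value of 89.4%, 92.7% and 94.6% in NaCNBH3 libraries, against 90.8%, 92.9% and 93.5% in mock libraries, so the ranges overlapped. The mean difference was 0.253 points, higher after NaCNBH3 in 11 of 16 RNA samples (two-sided exact sign-flip permutation test, p adjusted over the 5 base-methylated positions = 0.372). By replicate number the difference ran both ways: 0.856 ± 0.469 points in replicate 1 (7 of 8 genotypes higher, exact sign-flip p = 0.0156) and -0.351 ± 1.25 points in replicate 2 (4 of 8 higher, exact sign-flip p = 0.461). The base composition moved. Reads with U averaged 11.8 ± 0.46% after NaCNBH3 and 10.6 ± 0.59% in mock libraries, a rise in 14 of 16 RNA samples (exact sign-flip permutation test, p adjusted over 6 base shares = 0.000916), which also held in each replicate number (exact sign-flip p = 0.00781 and 0.0391). Reads with G, the leading mismatch, averaged 80.3 ± 1.32% after NaCNBH3 and 81.3 ± 1.20% in mock libraries, a fall in 14 of 16 (exact sign-flip adjusted p = 0.00336).

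The methylated uridine U4530 was misread less often than A1322, most often as A. NaCNBH3 libraries had a lowest, median and highest mismatch share of 41.0%, 43.5% and 46.0%, against 41.4%, 42.8% and 44.2% in mock libraries. These ranges overlapped, and the mean difference of 0.765 points missed the threshold (higher in 11 of 16 RNA samples, exact sign-flip adjusted p = 0.0567). The difference went with the replicate number. In replicate 1 the share was 44.6% to 46.0% after NaCNBH3 and 43.0% to 44.2% in mock libraries, with no overlap and higher in 8 of 8 genotypes (exact sign-flip p = 0.00781, the smallest that 8 pairs allow). In replicate 2 it was 41.0% to 42.5% after NaCNBH3 and 41.4% to 42.7% in mock libraries, higher in 3 of 8 (exact sign-flip p = 0.117). A treatment difference in the total mismatch share at U4530 therefore did not hold within both replicate numbers. Reads with G averaged 7.525 ± 0.63% after NaCNBH3 and 7.01 ± 0.48% in mock libraries. They rose in 13 of 16 RNA samples (exact sign-flip p adjusted over 6 base shares = 0.00336), but in replicate 2 in 6 of 8 genotypes (exact sign-flip p = 0.0938). Reads with A rose in 8 of 8 genotypes in replicate 1 and fell in 7 of 8 in replicate 2 (exact sign-flip p = 0.00781 and 0.0156).

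**Figure D2:**
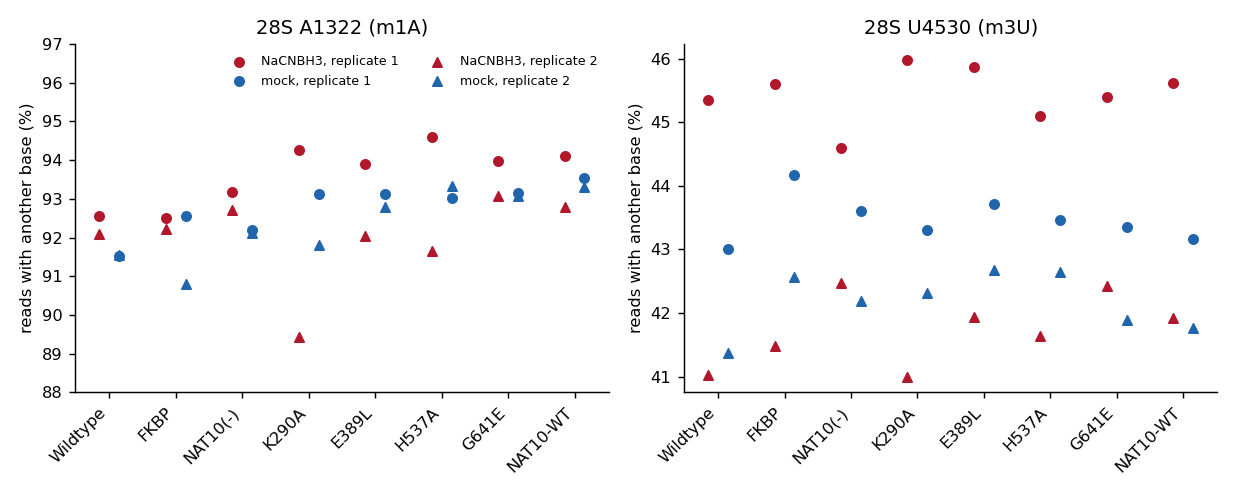
Share of reads with a base other than the genomic one (percent; axes do not start at 0) at A1322 (left) and U4530 (right) for each genotype, with NaCNBH3 libraries in red, mock libraries in blue, replicate 1 as circles and replicate 2 as triangles. At U4530 the NaCNBH3 libraries of replicate 1 lie at 44.6% to 46.0% and those of replicate 2 at 41.0% to 42.5% in every genotype.

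The other 3 base-methylated positions, whose methyl groups leave pairing intact, were read almost as unmodified bases. A4220 (m6A) had a lowest, median and highest mismatch share of 0.106%, 0.152% and 0.193% in NaCNBH3 libraries, against 0.0381%, 0.0584% and 0.0908% in mock libraries, with no overlap. The rise of 0.0841 points was seen in 16 of 16 RNA samples (exact sign-flip adjusted p = 0.000153). Other adenosines of 28S rRNA gained as well, with a median of 0.0520 points over 795 adenosines. A4220 lay above their 95% point of 0.0766 points, and 29 of them gained more. The m5C positions showed means of 0.1 ± 0.039% after NaCNBH3 and 0.0542 ± 0.022% in mock libraries at C3782 (higher in 14 of 16, exact sign-flip adjusted p = 0.000305). At C4447 the means were 0.0908 ± 0.026% after NaCNBH3 and 0.0628 ± 0.023% in mock libraries (higher in 15 of 16, exact sign-flip adjusted p = 0.0125), although within replicate 2 the exact sign-flip p was 0.219. Counted as C>U alone, the mean gains were 0.0385 ± 0.029 points at C3782 and 0.0220 ± 0.027 points at C4447, below the median C>U gain of 0.0531 points over all 1740 cytosines.

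None of the 5 base-methylated positions passed the test between genotypes without and with unmutated NAT10. A1322 averaged 92.7 ± 0.94% in the 12 RNA samples without and 92.7 ± 0.93% in the 4 with it. U4530 averaged 43.3 ± 1.29% without and 42.9 ± 1.62% with it. A4220 averaged 0.105 ± 0.018% without and 0.104 ± 0.017% with it. All 5 adjusted p-values were 0.977 (two-sided exact permutation test over 1820 arrangements). With permutations confined to each replicate number as a block, U4530 had p = 0.0306 before and 0.153 after adjustment in the exact permutation test.

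Ribose-methylated cytidines and adenosines were misread more often than unlisted bases of the same kind, whereas ribose-methylated guanosines and uridines were much closer to theirs. The 15 listed 2′-O-methylcytidines (Cm) had mock mismatch shares of 0.535% to 1.62% with a median of 1.11%, against a median of 0.0605% over 1678 unlisted cytosines. The 20 listed 2′-O-methyladenosines (Am) ranged from 0.132% to 2.13% with a median of 0.446%, against 0.0392% over 775 unlisted adenosines. The 19 listed Gm had a median of 0.0499%, against 0.0270% over 1805 unlisted guanosines, and the 8 listed Um had 0.0527%, against 0.0251% over 690 unlisted uridines. Of the listed positions, 11 Cm and 2 Am exceeded 1%, and no Gm or Um did. High shares were not particular to ribose methylation: 18 unlisted cytosines and 9 unlisted adenosines also exceeded 1%. A398, the highest of the listed Nm positions, was misread in 2.13% of mock reads, mostly as U.

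**Figure D3:**
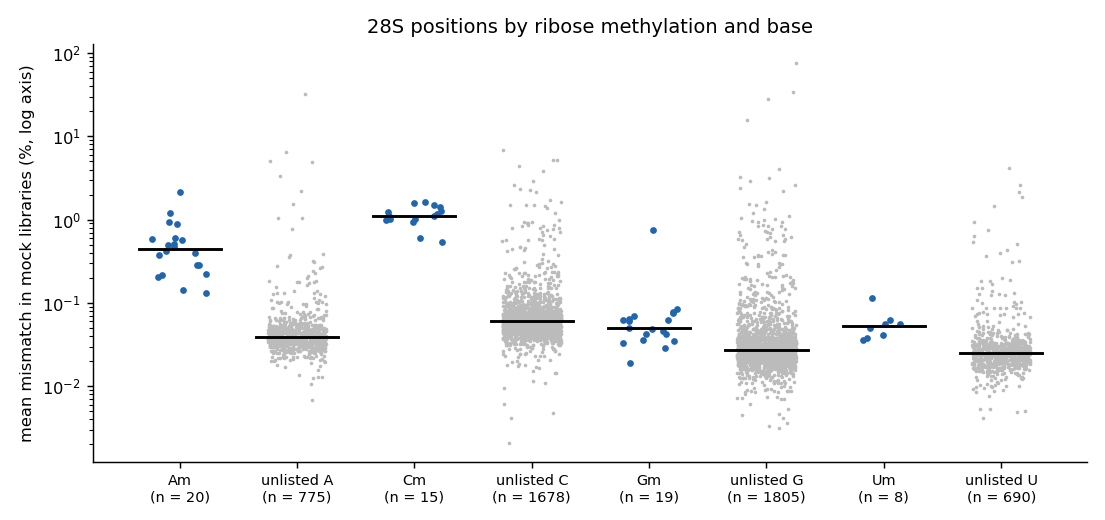
Mean mismatch share in the 16 mock libraries (percent, log axis) of each 28S position, with listed ribose-methylated positions in blue left of unlisted positions of the same base in grey; black lines are medians. The Cm median of 1.11% and the Am median of 0.446% lie above those of unlisted cytosines (0.0605%) and adenosines (0.0392%).

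Pseudouridine, which pairs as uridine does, was read much like unlisted uridine. The 54 listed Ψ of 28S rRNA had a median mock mismatch share of 0.0268%, against 0.0251% over 690 unlisted uridines, and a highest value of 0.0908%, at U4471, and none exceeded 0.1%. In 5.8S rRNA the listed positions were as quiet. The 2 ribose-methylated positions 5.8S_U14 and 5.8S_G75 had 0.0188% and 0.0866% after NaCNBH3, against 0.0185% and 0.0787% in mock libraries. The 2 pseudouridines 5.8S_U55 and 5.8S_U69 had 0.0359% and 0.0388% after NaCNBH3, against 0.0366% and 0.0404% in mock libraries.

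Among 28S positions whose leading mismatch had a mean share over 1%, ribose-methylated positions made up most of those called higher after NaCNBH3. limma, a linear model with moderated variances, was fitted to the log odds of the leading mismatch over 3136 positions of the series with a mean share over 1%, with the RNA sample as a block. It called 10 of the 61 28S positions tested at an adjusted p of 0.05, all higher after NaCNBH3, whereas 7.05% of all positions tested were called higher. Of the 10 listed Nm positions tested, 8 were called, with a median log2 odds ratio of 0.18. Of the 51 other positions, 2 were called, with a median of -0.00. The share filter selects Nm positions that are already misread, so these counts describe only those that passed it. The 10 Nm positions were all tested as C>U or A>U, whereas the 51 others included further kinds of mismatch. The counts were not matched by base or mismatch, so they do not show a response particular to ribose methylation.

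C4536, a Cm close to m3U at U4530, had the smallest adjusted p. It was read as U in 1.17%, 1.44% and 1.72% of reads (lowest, median and highest) after NaCNBH3, against 0.951%, 1.14% and 1.45% in mock libraries. The ranges overlapped across genotypes, but the NaCNBH3 fraction was higher in 16 of 16 RNA samples (log2 odds ratio 0.32 ± 0.04 SE, limma adjusted p = 3.71e-05). C3841 and C3887 followed, with means of 1.15 ± 0.11% after NaCNBH3 and 0.963 ± 0.13% in mock libraries (14 of 16, limma adjusted p = 0.00278), and of 1.47 ± 0.12% after NaCNBH3 and 1.30 ± 0.13% in mock libraries (15 of 16, limma adjusted p = 0.0127). C4536 was higher in 8 of 8 genotypes in each replicate number, whereas within replicate 2 the exact sign-flip p was 0.0547 at C3841 and 0.133 at C3887. The other called Nm positions, C2351, C2422, A3760, A398 and C4456, had log2 odds ratios of 0.11 to 0.32. Both called positions without a listed modification, C2197 and C2186, lie in a cytosine-rich stretch of low depth (124 and 498 reads at the lowest).

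At Cm and Am the gain in U reads was larger than at unlisted bases in percentage points and smaller relative to the mock level. At the 15 Cm the median gain was 0.137 points and positive at all 15, against 0.0532 points at 1647 unlisted cytosines. At the 20 Am the median gain was 0.102 points and positive at all 20, against 0.0422 points at 773 unlisted adenosines. The median U share at Cm was 1.13% after NaCNBH3 and 0.926% in mock libraries, whereas at unlisted cytosines it was 0.0995% after NaCNBH3 and 0.0453% in mock libraries. At Am it was 0.508% after NaCNBH3 and 0.401% in mock libraries, whereas at unlisted adenosines it was 0.0493% after NaCNBH3 and 0.00577% in mock libraries. The median gain at Cm was 0.133 ± 0.044 points in RNA samples without unmutated NAT10 and 0.162 ± 0.064 points with it (two-sided exact permutation p = 0.315). At Am it was 0.0972 ± 0.046 points without and 0.0992 ± 0.030 points with it (exact permutation p = 0.940). The permutations of both tests were not confined to a replicate number.

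Beyond single positions, NaCNBH3 raised 4 of the 12 possible substitutions over 28S rRNA as a whole. The rate of a substitution was its median share over the 28S positions of that base with at least 1000 reads in every library, leaving out positions with a mean mismatch over 1%. C>U averaged 0.0985 ± 0.018% after NaCNBH3 and 0.0438 ± 0.0031% in mock libraries, a ratio of 2.25. A>U averaged 0.0484 ± 0.011% after NaCNBH3 and 0.00533 ± 0.000071% in mock libraries, a ratio of 9.09. The mock A>U medians, 0.00517% to 0.00542%, lay near the smallest share above 0 that this depth can show. Their small SD and the ratio therefore depend on depth. A>G averaged 0.0230% after NaCNBH3 and 0.0159% in mock libraries, and G>A averaged 0.0140% after NaCNBH3 and 0.0118% in mock libraries. All 4 were higher in 16 of 16 RNA samples (exact sign-flip permutation test, p adjusted over 12 types = 9.16e-05, the smallest possible here), and in 8 of 8 within each replicate number. G>U missed the threshold (adjusted p = 0.0590, exact sign-flip permutation test), and no U substitution passed it. The medians of C>G, G>C, U>A and U>G were 0 in most libraries, so a small rise in these could not be seen.

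The C>U rate separated the replicate numbers after NaCNBH3 and not before. NaCNBH3 libraries of replicate 1 had 0.0775% to 0.0858% and those of replicate 2 had 0.106% to 0.126%, with no overlap, whereas mock libraries had 0.0391% to 0.0476% in replicate 1 and 0.0411% to 0.0520% in replicate 2. The labels give the replicate number as a batch. The gain in C>U rate was 0.0535 ± 0.017 points without unmutated NAT10 and 0.0583 ± 0.022 points with it (two-sided exact permutation test of 12 against 4 RNA samples, p = 0.639). By replicate number the gain was 0.0387 ± 0.0021 points in replicate 1 and 0.0706 ± 0.0085 points in replicate 2. The permutations were not confined to a replicate number, so a genotype difference smaller than this spread could be missed.

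The C>U response of 28S and 5.8S cytosines was therefore small and nearly universal. Of 1740 cytosines, 1723 had a mean gain above 0, with a median of 0.0531 points and 5% and 95% points of 0.0249 and 0.0981. limma called 209 of the 266 cytosines with a mean U share over 0.1%, all higher after NaCNBH3, where 27.6% of 15723 such cytosines of the series were called higher. The cytosines were not matched for depth, on which the power to call a small gain depends. The counts therefore do not compare the size of the response. The 5 with the smallest adjusted p were C3003, C4132, C3552, C3004 and C1123. C3003 averaged 0.282 ± 0.063% after NaCNBH3 and 0.101 ± 0.034% in mock libraries and was higher in 16 of 16 RNA samples (log2 odds ratio 1.48 ± 0.13 SE, limma adjusted p = 1.9e-07).

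Large gains were few and lay where depth was low. Only 3 cytosines gained over 0.5 points, C2186 (1.09 ± 1.18 points), C2197 (0.952 ± 0.889 points) and C2190 (0.530 ± 0.749 points), all in the same short stretch and with median depths of 1469, 285 and 1171 reads. Shifts in this stretch ran both ways: C2196, next to C2197, was read as U in 2.07 ± 0.84% of reads after NaCNBH3 and 3.065 ± 1.17% in mock libraries. Its mean gain of -0.995 points was the lowest of all cytosines. C3447 (0.318 points) and C2198 (0.310 points, median depth 346 reads) followed. In replicate 2 alone C2186 gained in 6 of 8 genotypes (exact sign-flip p = 0.344) and C2190 in 4 of 8 (exact sign-flip p = 0.359). Among cytosines with at least 1000 reads in every library, C3447 and C4536 (0.279 points) gained in 8 of 8 genotypes in each replicate number. C3593 had a mean gain of 0.296 points that averaged opposite shifts: in replicate 1 it was read as U in 6.16% of reads after NaCNBH3 and 3.70% in mock libraries (higher in 7 of 8), and in replicate 2 in 2.00% after NaCNBH3 and 3.86% in mock libraries (lower in 6 of 8). The 228 cytosines in the middle of CCG had a median gain of 0.0515 points, against 0.0534 points at the other 1512, and 19 of 27 CCG cytosines tested were called, against 190 of 239 others.

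No 28S or 5.8S cytosine passed the test for a C>U response that differed between genotypes. In limma on the 16 differences of NaCNBH3 minus mock, 0 of 266 cytosines were called (7 at an unadjusted p under 0.05, smallest adjusted p = 0.786), and 0% of the 15723 in the series were. The differences of the log2 odds ratios, without minus with unmutated NAT10, had a median of -0.11 (lowest -1.31, highest 1.07) and a median SE of 0.38, so differences within this spread were not detectable. The same limma fit did not call 18S C1337 (adjusted p = 0.0792) or C1842 (adjusted p = 0.263) either, although their gains were 9.02 ± 1.70 and 5.83 ± 2.13 points without unmutated NAT10, against 72.3 ± 12.7 and 70.5 ± 14.5 points with it. With the replicate number as a block both 18S cytosines were called (limma adjusted p = 0.0219 and 0.0282), among 18 (0.114%) in the series, and still 0 of the 266. No 28S cytosine approached these gains: C3003 gained 0.169 ± 0.054 points without and 0.214 ± 0.041 points with unmutated NAT10, and C2197 gained 0.859 ± 0.918 points without and 1.23 ± 0.851 points with it.

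**Figure D4:**
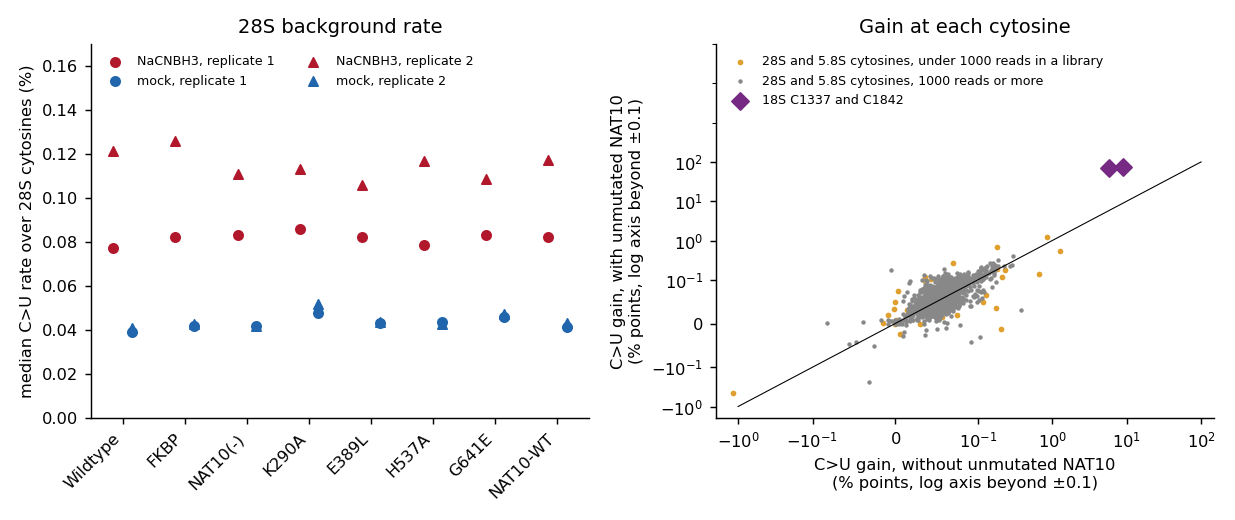
Left, median C>U rate over 28S cytosines (percent) for each genotype, with NaCNBH3 libraries in red, mock libraries in blue, replicate 1 as circles and replicate 2 as triangles. Right, mean C>U gain (NaCNBH3 minus mock, percentage points, log axes beyond ±0.1) of each 28S and 5.8S cytosine in the 12 RNA samples without unmutated NAT10 (horizontal) and the 4 with it (vertical), with cytosines under 1000 reads in a library in orange, 18S C1337 and C1842 as diamonds, and the line of equal gain. The 28S and 5.8S cytosines scatter about the line with a median gain of 0.0531 points, while the 18S cytosines sit above it at 72.3 and 70.5 points with unmutated NAT10.

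By Fisher's exact test within each replicate, called where both replicates passed in the same direction, few positions changed in any 1 genotype. In NAT10-WT 3 of 55 positions tested were called, A328, G3267 and C4054, all higher after NaCNBH3 (3.01% of all positions tested in NAT10-WT were called higher). C4054 is a listed Cm and was read as U, whereas A328 was read as C and G3267 as U. Beside the share of all positions called in either direction, Wildtype had 1 of 57 (3.57% of all), FKBP 1 of 63 (1.9%), NAT10(-) 1 of 57 (1.89%), K290A 2 of 54 (2.38%), E389L 2 of 53 (1.73%), H537A 6 of 57 (2.46%) and G641E 1 of 61 (1.62%). They included C3841 (Cm) higher in Wildtype, A398 (Am) higher in NAT10(-) and A1322 lower in E389L, read as G. G3041 and G4910 were called higher in 2 genotypes each, and G3487 was called higher in H537A and lower in E389L. When the share limit was 0.1%, the limit of the methods for low-confidence sites, 65 of 631 positions were called in NAT10-WT, all higher and 62 of them C>U (7.55% of all were called higher). This test compares reads of 2 libraries at a time and holds no spread between cultures.

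Between genotypes, C3033 was the 1 position of 61 that differed without against with unmutated NAT10, and its values set Wildtype apart from every other genotype. C3033 lies in a pyrimidine run and has no listed modification. In NaCNBH3 libraries limma gave a log2 odds ratio of 1.86 ± 0.12 SE (adjusted p = 6.39e-06, where 3.83% of all positions were called in either direction), and in mock libraries 1.89 ± 0.12 SE (adjusted p = 1.15e-05, where 4.18% were called). With the replicate number as a block, 4 positions were called in NaCNBH3 libraries (C3033 and C1047 higher, C874 and C901 lower) and 2 in mock libraries (C3033 and C1047), where 5.04% and 5.26% of all positions were called under the same block.

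C3033 was read as A in 1.58% and 1.58% of reads in FKBP, 1.44% and 2.15% in NAT10(-), 1.78% and 1.69% in K290A, 1.43% and 1.51% in E389L, 1.45% and 1.73% in H537A and 1.77% and 1.53% in G641E NaCNBH3 libraries, against 1.61% and 1.42% in NAT10-WT and 0.132% and 0.123% in Wildtype. The NAT10-WT libraries thus sat among those without unmutated NAT10, and the Wildtype libraries alone stood apart. In mock libraries the tagged lines, NAT10-WT included, had 1.35% to 1.86%, against 0.127% and 0.111% in Wildtype. With Wildtype left out, a comparison added after the data were seen, 0 of 61 positions were called by limma between genotypes without unmutated NAT10 and NAT10-WT in NaCNBH3 libraries (0 at an unadjusted p under 0.05) and 0 in mock libraries (2 at an unadjusted p under 0.05). This comparison was not run with the replicate number as a block.

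The comparisons of single genotypes showed the same division. In NaCNBH3 libraries Wildtype minus NAT10-WT had 2 positions called, C3033 (log2 odds ratio -3.51 ± 0.21 SE, limma adjusted p = 4.63e-06) and A4810 (-0.72 ± 0.16 SE, limma adjusted p = 0.0392), where 3.16% of all positions were called. A4810 was read as G in 22.9% and 25.8% of Wildtype reads, against 33.8% and 35.4% in NAT10-WT. In mock libraries C3033, C3593 and C1047 were called, all lower in Wildtype, where 4.24% of all were. C3593 is the position whose shift after NaCNBH3 turned with the replicate number. None of the 61 positions was called by limma in FKBP, NAT10(-), K290A, E389L, H537A or G641E against NAT10-WT in either treatment, with 0 to 5 at an unadjusted p under 0.05. With the replicate number as a block, the calls of Wildtype minus NAT10-WT numbered 8 in NaCNBH3 libraries (4.78% of all positions) and 5 in mock libraries (5.8% of all), and the other 6 genotypes still had none of 61, where 10 to 52 of 3136 positions were called. The helicase mutants K290A and E389L minus the GNAT mutants H537A and G641E gave 0 of 61 (limma, 1 at an unadjusted p under 0.05), where 0.0319% of all positions were called.

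Because the division lay between Wildtype and the 7 tagged genotypes, that contrast was added after the data were seen, down to a mean share of 0.1%. Wildtype and tagging cannot be told apart from any other difference between the parental and the tagged cells in it, and the positions named next were chosen after their values were seen. limma called 7 of 481 positions in NaCNBH3 libraries, where 0.814% of all positions were called, and 8 in mock libraries, where 0.951% were. A position that is high in only one of the 2 sets of lines enters through that set, since the share filter is a mean over all libraries. With 1 genotype against 7, a position that is high in Wildtype alone needs a higher share to pass than one that is high in the tagged lines alone, so the balance of lower and higher calls is partly set by the filter and is not a result. Lower in Wildtype in both treatments were C3033, C1704, C713, G4515, G1829 and C1188, and C2921 in mock libraries only. Of the positions that passed, G1544 was called higher in Wildtype. None of these positions has a listed modification or another base in the other reference copies of the gene.

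G1544 and C1704 were the most distinct. G1544 was read as U in 1.90% and 4.09% of Wildtype NaCNBH3 reads and 1.98% and 3.67% of Wildtype mock reads, against at most 0.0267% in the 28 libraries of the tagged lines. The 2 Wildtype replicates differed from each other by more than their 2 treatments did. C1704 was read as G in at most 0.0103% of reads of the 4 Wildtype libraries, against 0.414% to 0.589% in NaCNBH3 and 0.361% to 0.632% in mock libraries of the tagged lines. C713, read as A, had 0.0360% and 0.0360% in Wildtype NaCNBH3 libraries, against 0.318% to 0.560% in the tagged lines. C1188, read as U, had 0.215% and 0.302% in Wildtype NaCNBH3 libraries, against 0.771% to 1.097% in the tagged lines. At none of these 4 positions did the ranges overlap in either treatment.

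**Figure D5:**
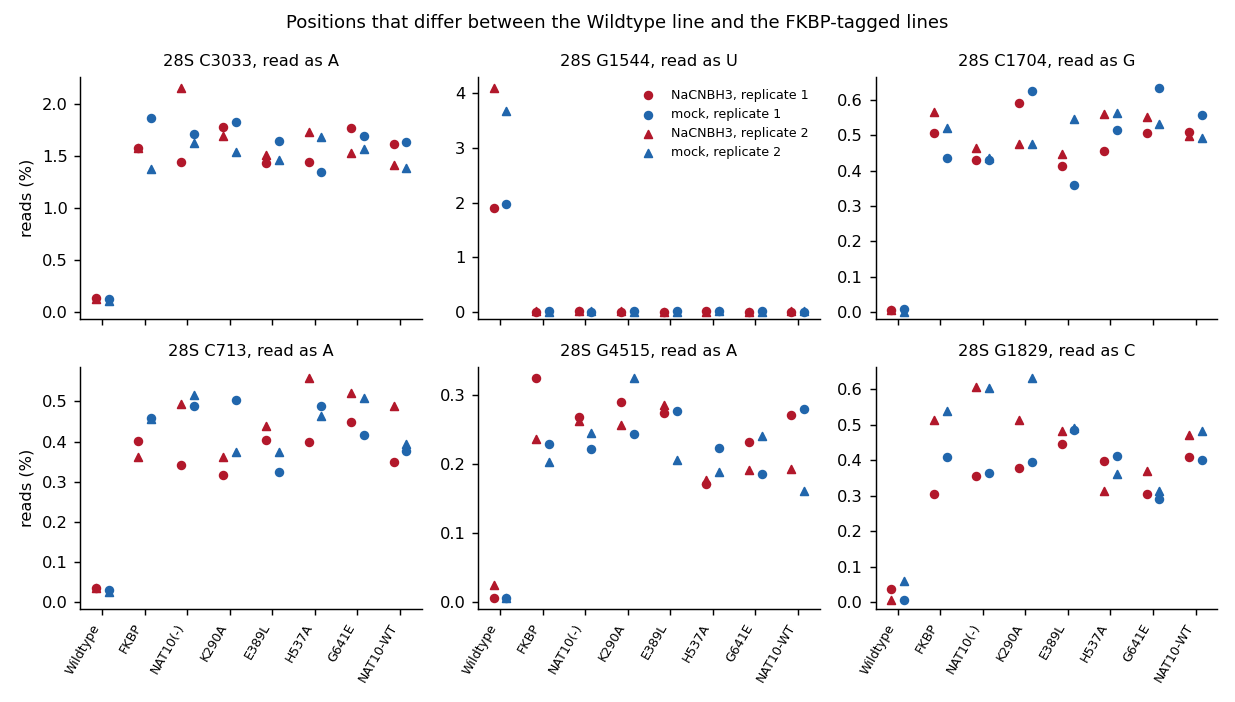
Share of reads with the named base (percent) at 6 positions of 28S rRNA for each genotype, with NaCNBH3 libraries in red, mock libraries in blue, replicate 1 as circles and replicate 2 as triangles. At C3033, C1704, C713, G4515 and G1829 the Wildtype libraries lie below all 7 tagged genotypes, NAT10-WT included, and at G1544 they lie above, at 1.90% to 4.09% against at most 0.0267%.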

How the data were processed

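Base-resolution ac4C sequencing data of 32 Hep3B libraries (8 genotypes, mock and NaCNBH3, 2 replicates) were used. The authors trimmed reads with cutadapt (4.2), removed duplicates by 10-base molecular identifiers with UMI-tools (1.1.5), aligned to GRCh38 with STAR (2.7.9a) and deposited raw counts of each base per position from SAMtools (1.6) mpileup, listing positions with at least 30 reads. Partial rRNA depletion and the assignment of reads to 1 of several rRNA gene copies can change depth and shares. RNA was split after fragmentation and ligation, so mock and NaCNBH3 libraries of 1 RNA sample were paired.

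Shares were computed per library and position on the transcript strand. Log odds (0.5 reads added) were fitted with limma (3.58.1, R 4.3.3) over all positions of the series with 30 reads in all libraries and a mean share of the leading mismatch over 1% (cytosines read as U: 0.1%), adjusted by Benjamini-Hochberg at 0.05, and checked on simulated data. Fisher's exact tests required 5 mismatch reads. Exact permutation tests and Fisher's tests were computed in Python (3.11.15) with numpy (2.4.6), and Fisher's tests also used scipy (1.17.1). Errors are SD unless given as SE. PCR was collapsed by molecular identifiers, and shares carry counting error as well. Median depth per library was 18350 to 19070 reads over 28S rRNA and 19190 to 19630 reads over 5.8S rRNA.

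The labels give the replicate number as a batch. In NaCNBH3 libraries, the log odds of replicate 2 minus replicate 1 at 61 positions were correlated between genotypes. Over 28 genotype pairs the correlations ran from -0.494 to 0.82 (median 0.523, 22 over 0.1). Mock libraries were not examined for such correlations. The main genotype tests had no replicate block. The planned limma genotype contrasts and the genotype test at the base-methylated positions were rerun with the replicate number as a block. Blocked values are given where they change a result. The contrasts added after the data were seen, and the genotype tests of the C>U rate and of the Cm and Am gains, were not rerun with it. Named positions were the 5 base-methylated positions of 28S rRNA, 4 listed positions of 5.8S rRNA, the 12 highest in mock libraries, the 5 smallest adjusted p per comparison and direction, and the 5 largest C>U gains; others (A398 and the other Nm positions, those of the Wildtype contrast and of Fisher's test) were named after their values were seen. Listed modifications came from general knowledge and counted only where the reference base fitted (62 of 63 Nm and 54 of 59 Ψ in 28S rRNA). Members and lists were chosen with earlier results of these data known. Alternatives covered reads added, minimum depth and share, mismatch type, gene copies, blocks and leaving out samples. Cell type markers were not analysed here, since only rRNA positions were used.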

Additional observations from a re-analysis of the deposited data

Results flagged for a closer look

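Of 36 groups of 4 to 10 samples at the named base-methylated positions, 2 held a sample far from the others, and chance alone gives such a sample in about 1 of 20 groups. At the m5C position C3782, the NaCNBH3 library of Wildtype replicate 1 had a mismatch share of 0.04265%, whereas the other 3 libraries with unmutated NAT10 had 0.08701%, 0.0927% and 0.09468%. At the m6A position A4220, the NaCNBH3 library of E389L replicate 1 had 0.1165%, whereas the other 3 libraries of the helicase mutants had 0.1568%, 0.1571% and 0.1609%. In both, the library was of replicate 1, in which the mean share after NaCNBH3 was lower at each position than in replicate 2 (0.0761% and 0.124% at C3782, 0.130% and 0.163% at A4220). Whether the replicate number accounts for these values was not tested.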

How the results depend on the processing

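The number of positions called by limma after NaCNBH3 (10) was 216 at a mean share over 0.1%, 0 over 5% and 17 with all mismatches together. Without minus with unmutated NAT10, the 1 call in NaCNBH3 libraries became 2 with 5 reads added, 3 at a minimum of 100 reads and 6 over 0.1%; the 1 call in mock libraries became 5 over 0.1% and 0 over 5%. With the replicate block these counts were 4 and 2. With Wildtype left out they were 0 and 0, also over 0.1%. The C>U calls (209) were 11 over 1% and 1631 with no minimum, since fewer or more cytosines were tested. The 2 calls of single genotypes against NAT10-WT became 5 at 100 reads, 6 over 0.1%, 1 over 5%, 1 with all mismatches, 1 without other gene copies and 8 with the replicate block. The 3 Fisher calls in NAT10-WT became 65 over 0.1%. The difference at A1322 between NaCNBH3 and mock was 0.253 points for all mismatches and -0.98 points for G reads alone, since U reads moved the other way. Apart from C>U, the cause of these changes in count was not tested.

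Leaving out 1 RNA sample at a time gave 5 to 10 calls after NaCNBH3 (5 without Wildtype replicate 1, 6 without G641E replicate 1), 1 to 3 without minus with unmutated NAT10 in NaCNBH3 libraries (3 without K290A replicate 2, 2 without K290A replicate 1 or FKBP replicate 2) and 1 to 3 in mock libraries (3 without E389L replicate 1), 1 to 3 over single genotypes, and 202 to 209 C>U calls. The Fisher test on 1 replicate alone called 14 to 18 positions, against 3 in both. Besides these and the mock calls of Wildtype minus NAT10-WT, the replicate block changed no count of 28S and 5.8S calls where it was run. Without the RNA sample as a block, C2422 and C4456 were no longer called after NaCNBH3. Depth limits the shares at the 65 positions of 28S rRNA under 1000 reads in a library, C2186, C2190 and C2197 among them.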
